A study of Mus musculus and Rattus norvegicus with 2 samples.

Results

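U1 is the small nuclear RNA (snRNA) of the spliceosome that recognises the start of an intron. The reads described here are its fragments in libraries labelled as sperm. They were chosen by the entry printed beside each deposited sequence: every row matched to the Rfam family U1 was taken, so the number of U1 reads is what selected them and is given as a description, with no test. In the mouse library 860 of 914516 listed sequences were U1, with 7368 of 11760708 listed reads. In the rat library 2418 of 650877 listed sequences were U1, with 70296 of 14652889 listed reads. Over both libraries there were 2799 distinct U1 sequences.

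The mouse library came from C57BL/6 mice aged 2 months, as purified sperm of the caput, the first part of the epididymal duct in which sperm mature. The rat library came from purified caput epididymal sperm of Sprague Dawley rats described as young adults of 450 g. RNA was isolated with Trizol, and the fraction of 18 to 45 nt went into Illumina libraries. There was 1 library per species, with no treatment, and how many animals each library holds is not given in the sources used here. No difference below has a replicate check. Intervals are exact 95% binomial intervals (Clopper-Pearson for a share, conditional for a ratio) and describe counting error only, with reads taken as independent. PCR reads without molecular identifiers are not independent molecules, so the intervals can be too narrow even for that error.

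In the cell, U1 RNA works as a particle. Bases near its 5′ end pair with the 5′ splice site of the pre-mRNA. Stem-loop I binds the U1-70K protein, the loop of stem-loop II binds the U1A protein, and a single-stranded stretch between stem-loops III and IV, the Sm site, is enclosed by a ring of Sm proteins. Stem-loop IV forms the 3′ end of the RNA. Spermatozoa have condensed chromatin and make little or no new RNA, and their small RNAs are rich in fragments of longer structured RNAs.

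The mouse gene Rnu1a1 (ENSMUSG00000095969.1, an snRNA gene of a single exon, GRCm38 chr11:87422867-87423030, plus strand) served as the coordinate frame, and all positions are counted from 1 at its 5′ end. Its 164 bases are shown first because every fragment below is a piece of it. Capitals mark in order the bases that pair with the 5′ splice site (ACTTACCT), the U1A site in loop II (ATTGCAC) and the Sm site (AATTTGTGG). These letters, searched on both strands, occurred in 4.41%, 5.78% and 4.70% of the 1383 mouse snRNA transcripts of the annotation.
Rnu1a1: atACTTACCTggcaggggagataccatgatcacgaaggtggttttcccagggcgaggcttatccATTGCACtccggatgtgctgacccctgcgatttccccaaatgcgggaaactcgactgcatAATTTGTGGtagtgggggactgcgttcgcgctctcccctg

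The next sequences are the fragments on which the results turn, each read exactly in both libraries, with whole sites in the same capitals. The first is the 3′ fragment that leads both libraries, and the next is the most abundant fragment holding the Sm site in mouse.
bases 147 to 164: cgttcgcgctctcccctg
bases 104 to 146: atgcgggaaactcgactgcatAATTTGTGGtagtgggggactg
bases 110 to 146: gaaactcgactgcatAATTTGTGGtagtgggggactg
bases 109 to 146: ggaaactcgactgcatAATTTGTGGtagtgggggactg
bases 111 to 145: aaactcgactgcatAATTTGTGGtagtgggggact
bases 65 to 101: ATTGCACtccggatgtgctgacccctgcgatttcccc
bases 65 to 100: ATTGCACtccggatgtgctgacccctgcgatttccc
bases 70 to 101: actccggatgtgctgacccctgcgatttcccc
bases 79 to 101: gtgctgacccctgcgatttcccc
bases 9 to 53: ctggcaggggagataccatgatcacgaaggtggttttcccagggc
bases 9 to 56: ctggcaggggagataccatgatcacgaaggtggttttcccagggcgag
bases 104 to 164: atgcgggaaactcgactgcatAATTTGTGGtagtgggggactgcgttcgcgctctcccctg
The last was chosen after its values were seen, as the uncut form that joins the first 2. Laid on the frame, the reads fell into 2 main blocks: the first runs from loop II to loop III, and the second from loop III across the Sm site to a point near loop IV, with the 18-nt piece completing the 3′ end.

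The level of U1 differed between the libraries. U1 held 626 reads per 1000000 listed reads (rpm; interval 612 to 641) in mouse and 4797 rpm (4762 to 4833) in rat, which is 7.66-fold more in rat (7.48 to 7.84) or 2.94 on the log2 scale. The log2 value was 2.33 without SNORD58 entries in the totals and 1.98 when distinct sequences were counted in place of reads. A library is a sum over its cells, so more cells that carry U1 fragments and more fragments per cell cannot be told apart. Among the 91 Rfam families present in each library with a summed count of at least 100, 33.0% were at least 2-fold higher in rat, and U1 stood 20th from the top. The median family was at -0.51 on the log2 scale.

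The other spliceosomal snRNAs did not share a direction. U2, which pairs with the branch point, was the most abundant in mouse at 1252 rpm and had 921 rpm in rat. U6, which takes the place of U1 at the 5′ splice site, had 376 rpm in mouse and 112 rpm in rat. U5, which holds the exon ends, had 46.9 rpm in mouse and 19.2 rpm in rat. U4, the partner of U6, had 24.8 rpm in mouse and 84.8 rpm in rat. Among the minor spliceosome's RNAs, U11 had 34.9 and 26.4 rpm and U12 had 9.95 and 42.4 rpm in mouse and rat. U4, U12 and U1 were thus higher in rat, and U2, U5, U6 and U11 were lower. U6atac rested on 44 and 37 reads, its ratio interval spanned 0 (-1.24 to 0.10 on the log2 scale), and U4atac had 0 reads in each library. As a share of the reads under these Rfam snRNA families, U1 was 26.4% of 27934 in mouse (25.9% to 26.9%) and 79.9% of 88010 in rat (79.6% to 80.1%). Reads of snRNA under records of other classes are not in these totals. That log2 ratio of 1.60 was 0.68 over distinct sequences and 0.80 for sequences without a mismatch to their entry.

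**Figure D1:**
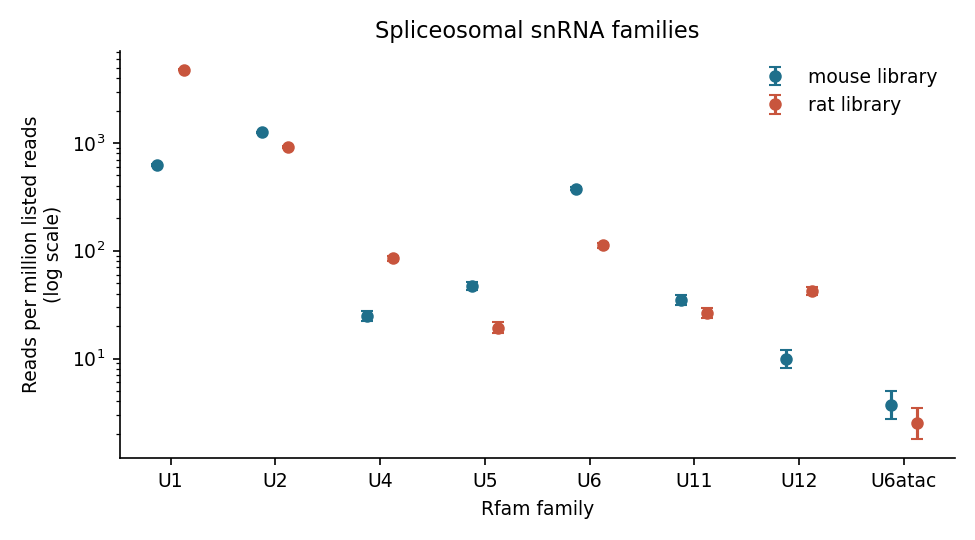
Reads per 1000000 listed reads (log scale) of each spliceosomal snRNA family in the mouse and rat library; bars are exact 95% intervals for counting error. U1 goes from 626 to 4797 rpm between mouse and rat, while U2, U5, U6 and U11 lie lower in rat.

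The sperm label was looked at through microRNAs known from other work. The germline and ciliary family miR-34b, miR-34c and miR-449 had 14.2 rpm in mouse and 900.3 rpm in rat. The epithelial family miR-200a, miR-200b, miR-200c, miR-141 and miR-429 had 207 rpm in mouse and 339 rpm in rat. Within the mouse library the epithelial family thus stood above the germline and ciliary family, and within the rat library below it. The share of RNA from other cells in each library was not tested. Reads of at least 25 nt exact on mouse transcripts were also counted. Prm1 and Prm2, which encode protamines, had 18 and 77 mouse reads (1.53 and 6.55 rpm) and 6 and 1 rat reads (0.409 and 0.0682 rpm). Tnp1 and Tnp2, which encode transition proteins, had 6 and 16 mouse reads and 1 and 11 rat reads. The rat reads were matched to mouse sequence, so their counts leave out rat transcripts that differ from it. The germline microRNAs were thus higher in rat, as U1 was, and the germline transcripts were lower by this match. Their part in the U1 values was not tested.

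Nearly every U1 read was a sense piece of the mature RNA. With at most 2 mismatches and no gap, 97.2% of mouse U1 reads (7163) and 99.8% of rat U1 reads (70172) could be placed on Rnu1a1 or on the variant genes Rnu1b1, Rnu1b2 and Rnu1b6. Of the placed reads, 96.6% in mouse and 95.1% in rat had no mismatch. The most frequent base at each position equalled Rnu1a1 at all 164 positions in each library. The reads counted for this left out some placed reads. At base 1 they were 83 of 85 in mouse and 102 of 108 in rat. Placement itself required a fit to a mouse U1 gene, so this agreement was largely set in advance. It cannot show how well the mouse frame suits rat U1. Reads on the minus strand of their entry were 58 in mouse (0.787% of U1 reads) and 39 in rat (0.0555%), and 0 of them were placed. Placement searched only the sense strand of the U1 genes, so an antisense U1 read could not have been placed.

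The coverage of U1 was low over the 5′ part and high over the 3′ part in each library, and the step was larger in rat. Base 25 in stem-loop I was covered by 34.4 rpm in mouse and 47.9 rpm in rat. Base 73 in loop II was covered by 185 and 266 rpm. Base 125, the first of the Sm site, was covered by 174 rpm in mouse and 2546 rpm in rat, and base 160 in stem-loop IV by 202 and 1827 rpm. In mouse the second block thus stood at about the level of the first, whereas in rat it stood far above it. Coverage dipped inside loop III in each library, to 50.2 rpm at base 103 in mouse and to 153 rpm at base 102 in rat.

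**Figure D2:**
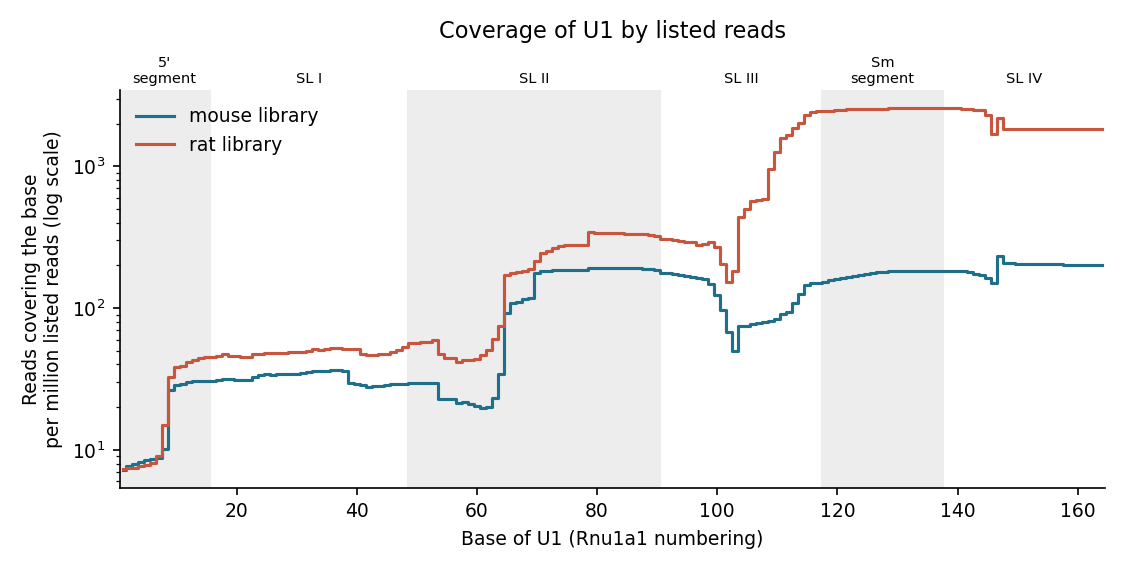
Reads per 1000000 listed reads (log scale) that cover each base of U1, numbered as in Rnu1a1, in the mouse and rat library; shading and labels mark the regions (SL, stem-loop). The lines lie close together over the 5′ segment and stem-loop I and part after loop III, reaching 174 rpm in mouse and 2546 rpm in rat at base 125.

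Regions were drawn from a fold of Rnu1a1 with pairs at most 50 bases apart, and each read was given to the region of its midpoint. The fold also drew a small hairpin over bases 118 to 134, inside the Sm segment. The 5′ segment (bases 1 to 15) had 52 mouse and 66 rat reads, and the rat to mouse ratio in rpm was 1.02 (0.698 to 1.49), whose interval spans 1. Stem-loop I (16 to 48) had 427 and 747 reads, a ratio of 1.40 (1.25 to 1.59). Stem-loop II (49 to 90) had 2284 and 5159 reads, a ratio of 1.81 (1.73 to 1.91). These are the regions that carry the splice-site pairing bases, the U1-70K site and the U1A site. Stem-loop III (91 to 117) had few midpoints, 48 mouse and 281 rat, with a ratio of 4.70 (3.45 to 6.52). The Sm segment (118 to 137) had 2026 and 37087 reads, a ratio of 14.7 (14.0 to 15.4). Stem-loop IV (138 to 164) had 2326 and 26832 reads, a ratio of 9.26 (8.87 to 9.66).

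The difference in total U1 therefore lay mainly in the Sm segment and stem-loop IV. Without SNORD58 entries, which include the most abundant mouse sequence, the totals shift and every ratio falls by the same factor: the Sm segment then stood at 9.67, stem-loop IV at 6.09, stem-loop II at 1.19 (1.14 to 1.25), stem-loop I at 0.924 (0.819 to 1.04) and the 5′ segment at 0.670 (0.459 to 0.984). The direction for stem-loop I and the 5′ segment thus depends on the total used. The order of the regions does not, because all share that total.

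As shares of placed U1 reads, stem-loop II took 31.9% in mouse and 7.35% in rat, the Sm segment 28.3% and 52.9%, and stem-loop IV 32.5% and 38.2%. The Sm site was whole in 28.4% of mouse and 53.1% of rat reads. The U1A site was whole in 15.1% and 3.52%. All bases that pair with the 5′ splice site were present in 94 mouse reads (1.31%) and 109 rat reads (0.155%), a log2 ratio of -3.08 (-3.49 to -2.67). Over distinct sequences in place of reads this ratio was -0.90. These same reads are the ones that start within 2 bases of the 5′ end, so few listed reads kept the mature 5′ end in either library. How well the libraries capture that end was not tested. These reads therefore do not give its share among the fragments in the cells. Reads that ended within 2 bases of the 3′ end were 33.0% in mouse and 38.2% in rat, and internal pieces 65.6% and 61.7%. Those last 2 differences changed sign without the 18-nt leading fragment.

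The ends of the reads were concentrated at a few bases. The main start was base 147, with 2081 mouse reads (29.1% of placed reads) and 25906 rat reads (36.9%). The base before it was the main internal end: 1094 mouse reads (15.3%) and 18481 rat reads (26.3%) ended at base 146. So reads on both sides met at the step between bases 146 and 147, 2 bases before the predicted loop of stem-loop IV (149 to 152). Base 146 as a start had 17 mouse and 234 rat reads. A read from a later start to base 164 would be shorter than 18 nt and could not be listed, so the spread of these starts cannot be judged. The ends on the 5′ side spread over several bases, with 171 mouse and 9650 rat reads at base 145 and 318 and 5088 at base 147. Ends at 145 to 147 together held 22.1% of placed reads in mouse and 47.3% in rat. Base 164, the mature 3′ end, closed 2353 mouse reads (32.8%) and 26751 rat reads (38.1%).

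Reads that cross this step were few. Reads from base 130 or before to base 160 or beyond were 191 in mouse and 700 in rat, counted under every entry. Added to the reads that came from base 130 or before and ended in the 6 bases before 147, and to those that started at 147, they were 4.97% of 3845 in mouse (4.30% to 5.70%) and 1.20% of 58471 in rat. The ratio was -2.05 on the log2 scale (-2.29 to -1.81). The uncut form of bases 104 to 164 had 60 reads in mouse and 101 in rat, against 227 and 2435 reads of its 5′ piece, bases 104 to 146. At 61 nt it is longer than the selected fraction of 18 to 45 nt, so these shares do not give the share of uncut RNA in the cells.

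**Figure D3:**
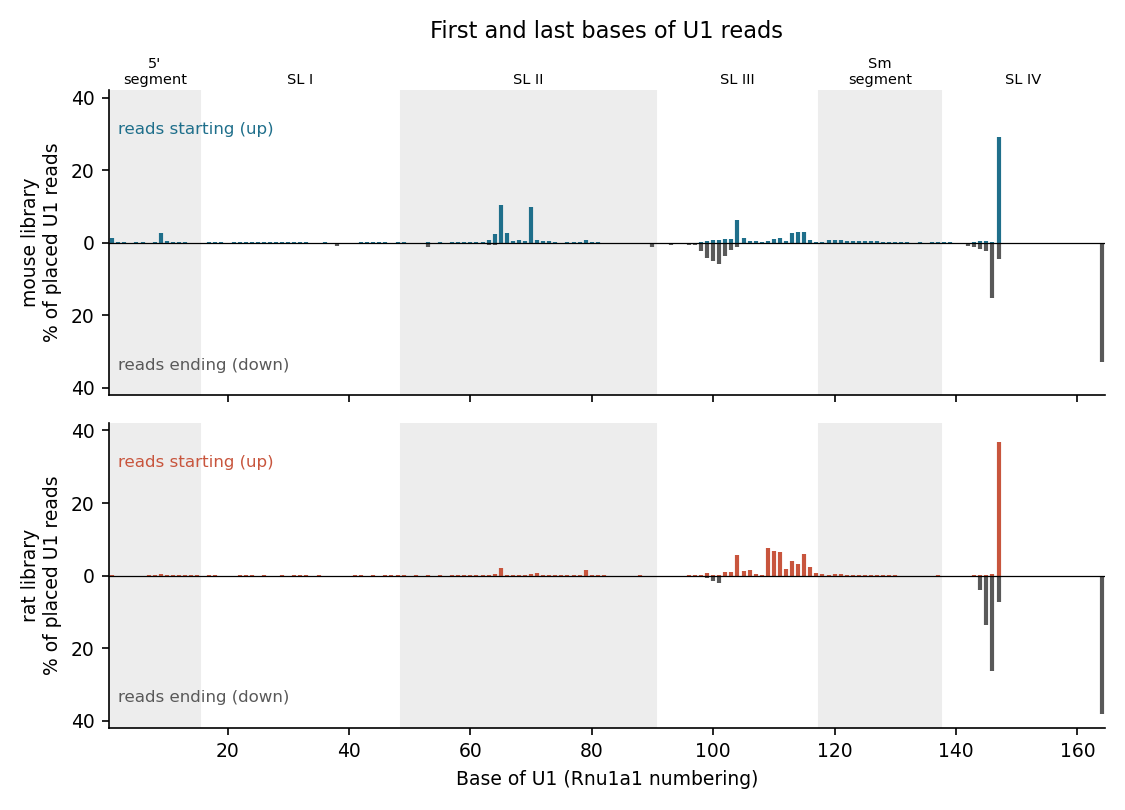
Share of placed U1 reads that start (up) and end (down) at each base of U1 in the mouse library (top) and the rat library (bottom). Starts at base 147 (29.1% and 36.9%) and ends at bases 146 and 164 stand out in each library, and the mouse starts at bases 65 and 70 are low in rat.

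Loop II was the other main start in mouse and a minor one in rat. Reads starting in it or at the base just after (65 to 75) were 26.3% of placed reads in mouse (25.2% to 27.3%) and 4.36% in rat, a log2 ratio of -2.59 (-2.67 to -2.51). Base 65, the first base of the U1A site, had 736 mouse starts (10.3%) and 1438 rat starts (2.05%). Base 70, inside the site, had 704 mouse starts (9.83%) and 390 rat starts (0.556%). A read from base 65 keeps the site whole, and one from base 70 has lost most of it. The fragment of bases 70 to 101 was the third most abundant in mouse with 170 reads, and had 91 in rat. The fragments of bases 65 to 100 and 65 to 101 had 134 and 127 reads in mouse, and 286 and 398 in rat. In rpm the last 2 were 1.71 and 2.52 times as high in rat as in mouse, and the fragment of bases 70 to 101 was 0.430 times as high. A shorter piece of the same block, bases 79 to 101, had 13 mouse reads and 437 rat reads, 27.0 times as high in rat by rpm (15.6 to 51.1). The fragments from bases 65 and 70 were named for their rank in mouse, and that of bases 79 to 101 for its rank in rat. The ratios of these fragments thus partly restate that choice.

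Loop III (bases 102 to 105) separated the blocks. Starts in it or at the base just after were 9.67% of mouse and 10.3% of rat reads, a log2 ratio of 0.09 whose interval spans 0 (-0.02 to 0.20). Ends in it or at the base just before were 13.0% in mouse and 2.77% in rat. Base 104 alone began 441 mouse reads (6.16%) and 3887 rat reads (5.54%). Rat had a further group of starts in the 3′ strand of stem-loop III. Base 109 began 35 mouse and 5410 rat reads, base 110 began 65 and 4703, and base 111 began 98 and 4565. The fragment of bases 110 to 146 was the second most abundant in rat with 2513 reads and had 33 in mouse, and that of bases 109 to 146 had 2431 and 27. The fragment of bases 111 to 145 had 1924 reads in rat and 10 in mouse, a rat to mouse ratio of 154 (83.8 to 323) in rpm. For the neighbouring form that starts at base 104 and ends at 146 the ratio was 8.61 (7.51 to 9.91). It was 61.1 (43.4 to 89.0) for bases 110 to 146 and 72.3 (49.5 to 110) for bases 109 to 146. Fragments of the Sm segment that share the end at base 146 and differ by a few bases at the start thus had different ratios. The form of bases 111 to 145 also differs at its end. The forms that start at 109, 110 and 111 were named for their rank in rat, so their ratios partly restate that choice.

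On the 5′ side the most frequent start was base 9, within the splice-site pairing bases, which leaves 2 of the 8 on the read. Base 9 began 192 mouse and 259 rat reads, against 85 and 108 at base 1. The fragment of bases 9 to 53 had 48 reads in mouse and 64 in rat. The fragment of bases 9 to 56 had 13 and 92.

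The base step at the start of the reads also differed. Of reads that begin more than 2 bases from base 1, 22.7% in mouse (21.8% to 23.7%) and 4.35% in rat (4.20% to 4.50%) began at the A of a CA or TA step, against 14 of the 163 steps of Rnu1a1 (8.59%). Without the leading fragment the shares were 31.7% and 6.63%. The mouse starts at bases 65 and 70 are CA steps and make up most of these reads. In rat, starts at a GG step were 22.7% without the leading fragment, against 2.74% in mouse. The rat starts at bases 109 and 110, with 5410 and 4703 reads, are GG steps and make up most of the rat share. The share of GG steps in Rnu1a1 was not counted.

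The leading fragment, bases 147 to 164, had 1992 reads in mouse and 24150 in rat. It was 27.0% of mouse U1 reads (26.0% to 28.1%) and 34.4% of rat U1 reads. Among all listed sequences of 18 nt it held 1.49% of reads in mouse and 9.73% in rat. Its 18 bases run from 2 bases before the predicted loop of stem-loop IV to the end of the RNA, and 16 mouse snRNA transcripts hold them exactly, so it cannot be given to a single gene. At 18 nt it is also the shortest length listed, and a 3′ piece from a later start could not appear in these files.

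It set the length of U1 reads. The most frequent length was 18 nt in each library, with 29.7% of mouse and 37.3% of rat U1 reads, against 1.12% and 1.52% of listed reads outside U1. The leading fragment was 91.2% and 92.2% of these 18-nt reads. Without it, the most frequent length was 32 nt in mouse (387 reads) and 36 nt in rat (4359 reads), and the median was 34 and 36 nt. Each library had a further peak at 43 nt, the length of bases 104 to 146, with 273 mouse reads (3.71%) and 2847 rat reads (4.05%). Reads over 45 nt were 5.42% in mouse and 1.84% in rat. The 5 most abundant sequences held 36.0% of U1 reads in mouse and 47.6% in rat, and 360 of 860 mouse and 1405 of 2418 rat sequences had a single read.

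**Figure D4:**
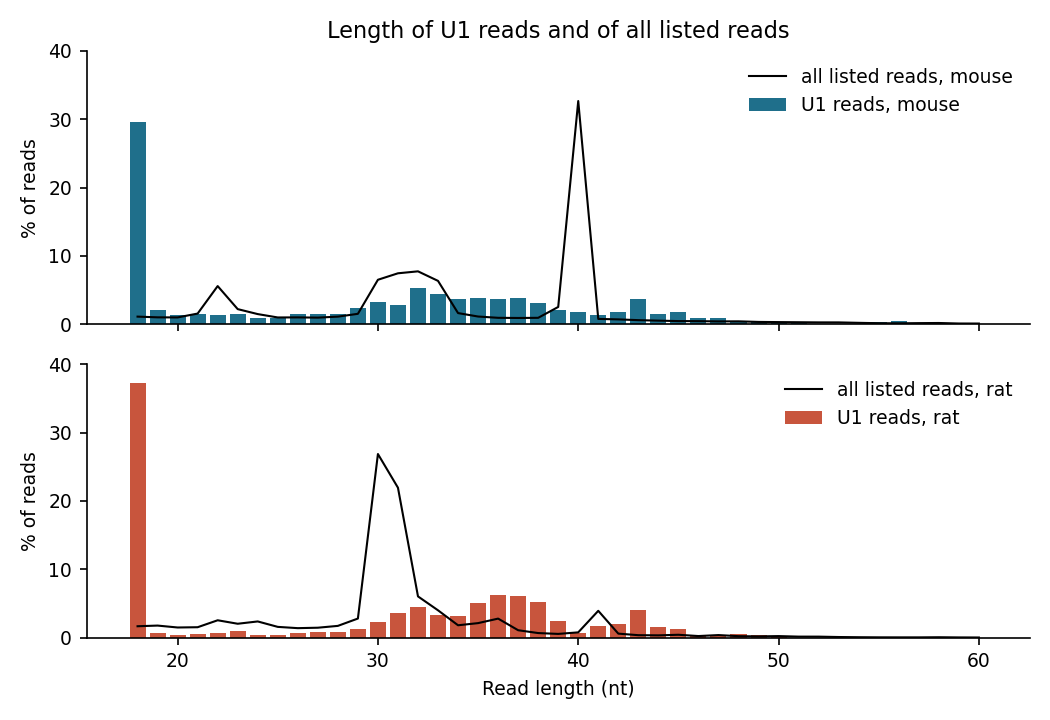
Share of U1 reads at each length (bars) and of all listed reads (line) in the mouse library (top) and the rat library (bottom), drawn up to 60 nt. The 18-nt bar, 29.7% and 37.3% of U1 reads, stands far above the line in each library, and the remaining U1 reads lie mostly between 30 and 45 nt.

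Of the U1 sequences, 479 were listed in each library. They were 55.7% of the mouse and 19.8% of the rat sequences, and held 89.3% of mouse and 92.4% of rat U1 reads, so the sequences found in a single library (381 mouse and 1939 rat) were mostly of low count. With at least 20 reads over both libraries, 190 could be compared, and 143 of them (75.3%) were at least 2-fold higher in rat and 12 at least 2-fold lower. Of all 18117 such sequences of any RNA, 45.1% were higher and 27.5% lower, with a median of 0.65 on the log2 scale. The U1 median was 2.71, with a range of -3.96 to 9.59. By region, 101 sequences of the Sm segment had a median of 3.53, and 90 of them were at least 2-fold higher. The 57 sequences of stem-loop II had a median of 1.05 with 30 higher, and the 22 of stem-loop IV a median of 2.28 with 17 higher. Stem-loop I had 7 with a median of 1.08. Over the 190 sequences the log2 counts of the libraries had a Pearson correlation of 0.34 and a Spearman correlation of 0.24. The filter of 20 reads is on the summed count, and U1 had 7368 reads in mouse against 70296 in rat. A sequence with few mouse reads passes it only through its rat count, and so comes out higher in rat. The counts and medians of the U1 sequences thus partly restate that filter. The U1 sequences also overlap and share 1 RNA and 2 libraries, so the values are a description.

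**Figure D5:**
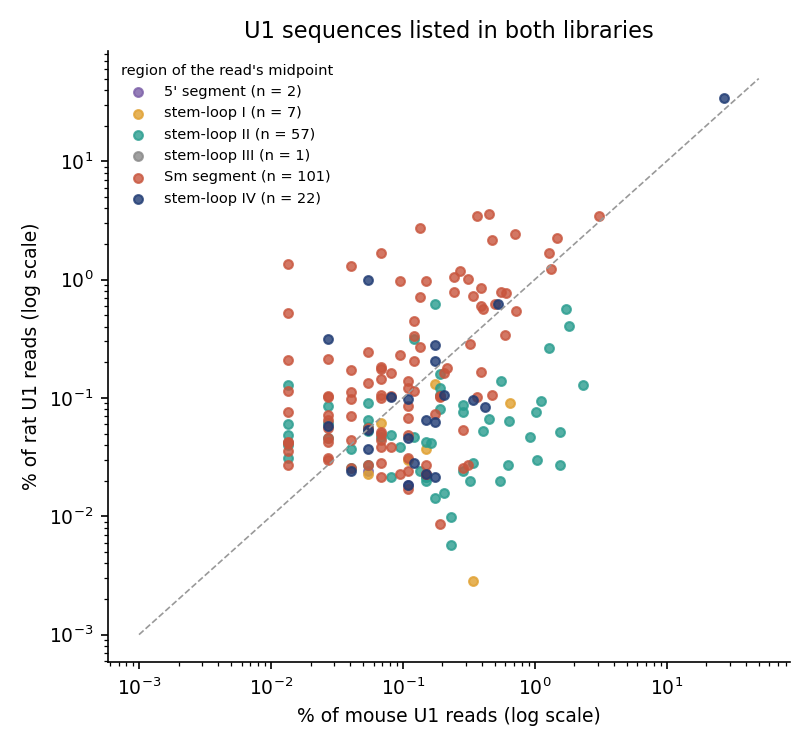
Each point is 1 of the 190 U1 sequences listed in both libraries with at least 20 reads, at its share of mouse (x) and rat (y) U1 reads, both on log scales and coloured by the region of its midpoint; the dashed line marks equal shares. Most Sm segment points lie above the line and most stem-loop II points below it, with the leading fragment at 27.0% and 34.4% at the top right.

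Mouse carries U1 genes of the a and b type, which have the same role in splicing and differ at a few bases. Rnu1b1 (GRCm38 chr3:96359953-96360117, minus strand) differs from Rnu1a1 by 6 substitutions and 1 added base, most of them in stem-loop II. It is shown with the bases that differ in capitals.
Rnu1b1: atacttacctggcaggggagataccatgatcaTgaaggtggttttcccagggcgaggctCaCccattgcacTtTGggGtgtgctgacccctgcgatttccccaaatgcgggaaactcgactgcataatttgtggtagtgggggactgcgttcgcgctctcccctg
In tokens that give the Rnu1a1 base, its position and the Rnu1b1 base, the substitutions are C33T, T60C, T62C, C73T, C74G and A77G. Rnu1b2 has the same differences, and Rnu1b6 (GRCm38 chr3:96460024-96460189) lacks C33T and adds T156G and an extra base in stem-loop IV. Most reads could not tell the types apart, the leading fragment among them.

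Reads that matched a b-type gene and not Rnu1a1 were 124 in mouse and 528 in rat. With the reads that matched Rnu1a1 alone, the totals were 2339 and 4664. The b-type matches were 5.30% (interval 4.43% to 6.29%) and 11.3% (10.4% to 12.3%) of these. At bases 33, 143 and 156 at least 1 b-type gene equals Rnu1a1. A read that covers only such a base and fits Rnu1a1 is left out of the totals. The percentages are therefore not shares of b-type U1 and do not compare the libraries. In mouse 114 of the 124 b-type matches fitted Rnu1b6 alone, and 70 reached the stretch of bases 60 to 77 where the types differ most. In rat 445 fitted Rnu1b6 alone, and 3 reached that stretch. The rat b-type matches lay mostly at base 33 (86 reads), at base 156 (134 reads) and at the extra G near base 143 (199 reads). Rat U1 genes were not used here, so the rat count says only that these reads equal a mouse b-type gene, not which rat gene they come from.

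Mismatches to the frame were few and unevenly placed. Among reads with a single mismatch to Rnu1a1, 70 of 227 in mouse (30.8%) and 2372 of 3372 in rat (70.3%) had it in the last 2 bases of the read. The most frequent in rat was T163G with 705 of 26623 counted reads over that base (2.65%), next to the 3′ end. T145G followed with 496 reads at the end of the Sm block. In mouse the most frequent was T60C, in 50 of 171 counted reads over base 60 (29.2%, interval 22.5% to 36.7%). These totals leave out some placed reads, which were 26765 over base 163 in rat and 239 over base 60 in mouse. Rnu1b1, Rnu1b2 and Rnu1b6 carry C at base 60, so 29.2% is not the share of mouse reads with C there. The 50 reads with T60C lacked the other b-type bases they covered and were 31 sequences. The most abundant of them spans bases 9 to 63 and occurs exactly in 1 of the 1383 annotated snRNA transcripts. In rat 4 reads carried T60C. Against their own Rfam entries, 91.2% of mouse and 52.9% of rat U1 reads had no mismatch, and 4.38% and 42.2% had 1. The rat leading fragment, exact on Rnu1a1, differs from its matched entry by 1 base and makes up most of the latter.

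The entries themselves were concentrated. Of 88 Rfam U1 entries in mouse the 3 with the most reads held 32.4%, 24.2% and 15.7% of U1 reads, and of 89 in rat they held 40.5%, 36.1% and 13.0%. U1 sequence also appeared under entries of other classes. With at most 1 mismatch, 30 mouse reads (12 under GenBank snRNA and 18 under GenBank records of unknown type) and 380 rat reads (103 under snRNA and 277 under mRNA records) lay whole on a U1 gene. Of these, 28 and 364 were longer than 45 nt, and 16 and 294 of the 30 and 380 ended within 2 bases of the 3′ end. They add 0.407% to the mouse and 0.541% to the rat U1 reads, but in rat they include the uncut form of bases 104 to 164.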

How the data were processed

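Small RNAs of caput sperm, described as purified, were measured in 1 mouse and 1 rat library. Each table the authors deposited holds, per the file headers, whole unnormalised read counts per distinct sequence, with strand, 1 matched entry and up to 2 mismatches. Bowtie 0.12.7, mm9 and rn5 are listed, with no role, per the submitters' processing notes. For trimming, filters and sequencing depth, the steps were not given in the sources used here. Sequence numbers run to 2253908 in mouse and 1269370 in rat, of which 40.6% and 51.3% are listed; the rest were not analysed here. Listed depth was 11760708 and 14652889 reads.

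Minus-strand sequences were reverse complemented. U1 genes came from GENCODE vM21 (GRCm38), and reads were placed without gaps with at most 2 mismatches, a step tested on simulated reads. Regions came from RNAfold 2.7.2 with a largest pair span of 50; without that limit the fold gave a single outer helix. Named sequences were the 5 most abundant per library and the most abundant in each region with at least 1% of U1 reads. With 1 library per species no test was run. SciPy 1.17.1 gave exact 95% intervals. The design assumed no replicates, and the members, regions and lists were chosen with earlier results of these data known.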

Additional observations from a re-analysis of the deposited data

How the results depend on the processing

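Values are log2 ratios of rat to mouse. The U1 share of listed reads, 2.94, was 2.73 without the most abundant sequence of each library, 2.33 without SNORD58 entries, 3.02 among Rfam reads, 1.98 over distinct sequences, 3.08 for sequences without a mismatch to the entry, 3.12 for those of at least 10 reads, 2.98 by sequence content in every class and, chosen after seeing the data, 2.79 without the leading fragment. The U1 share of Rfam snRNA reads, 1.60, was 0.68 over distinct sequences, 0.80 without mismatches, 1.65 with at least 10 reads and 1.80 without the leading fragment.

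The 5′-end share, -3.08, was -0.90 over distinct sequences. The internal share, -0.09, reversed to 0.066 over distinct sequences, 0.049 without the leading fragment, 0.021 with at least 10 reads and 0.079 for reads of at least 20 nt. The 3′-end share, 0.21, reversed to -0.66, -0.35, -0.017 and -1.89 under the same settings; the settings of 20 nt and without the leading fragment remove that 18-nt sequence by construction, and for the others the cause was not tested.

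Chosen after seeing the data, the rpm ratios by region were recomputed without SNORD58 entries and without the most abundant sequence of each library. The 5′ segment, 0.03, reversed to -0.58 and -0.18. Stem-loop I, 0.49, reversed to -0.11 in the first and was 0.28 in the second. Stem-loop II, 0.86, gave 0.25 and 0.65, the Sm segment, 3.88, gave 3.27 and 3.67, and stem-loop IV, 3.21, gave 2.61 and 3.01. Stem-loop III, 2.23, gave 1.63 without SNORD58 entries. Both settings change only the total.

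The modal length of 18 nt became 32 nt in mouse and 36 nt in rat without the leading fragment. U1 reads under other entries were 19 in place of 30 in mouse and 315 in place of 380 in rat when no mismatch was allowed. No paired analysis was possible because there was 1 library per species. The files start at 18 nt, so shorter 3′ fragments were not measurable, and the 94 and 109 reads with the mature 5′ end limit what can be said of it.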
